A study of Mus musculus with 8 samples.

Results

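Isorhamnetin and tamarixetin are plant flavonols. Each is a methyl ether of quercetin, and the pair are isomers that differ in which of the neighbouring hydroxyl groups of the B ring carries the methyl group. Their effects on gene expression were compared directly in the mouse line J774.1, which derives from the BALB/c strain and resembles macrophages. The comparison rests on 4 of the 8 arrays of the series, 2 from cells given isorhamnetin at 10 µM for 6 h and 2 from cells given tamarixetin at 10 µM for 6 h, chosen by their treatment labels and by no measured value. The other arrays are 2 controls, for which the labels give no agent, dose or time, and 2 from cells given Torin1, an inhibitor of the mTOR kinase, at 1 µM for 6 h. All groups share the same line, so nothing here speaks for primary macrophages. The control arrays were used to place each flavonol, and no contrast with the Torin1 arrays is given. All 8 arrays entered the estimate of spread, the background filter and the choice of each gene's brightest probe. Through control or Torin1 alone, 164 genes passed the filter.

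Of 56605 probes for transcripts, 42526 lay within spot rows 49 to 336, which leaves out 48 rows at either end, and were kept. The rows near the edges had been seen to vary more between replicates. In log2 units, the standard deviation of the difference between replicates was 0.704 with tamarixetin and 0.225 with isorhamnetin in rows 41 to 48, just outside the limit, and 0.712 and 0.246 in rows 49 to 56, just inside it. At the other end the tamarixetin and isorhamnetin values were 0.226 and 0.259 in rows 329 to 336, just inside, and 0.217 and 0.306 in the 8 rows just outside. After probes never above background were set aside, 17190 genes remained, each read from its brightest probe. The tamarixetin spread thus ran on into the rows that were kept, and fell along the array.

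**Figure D1:**
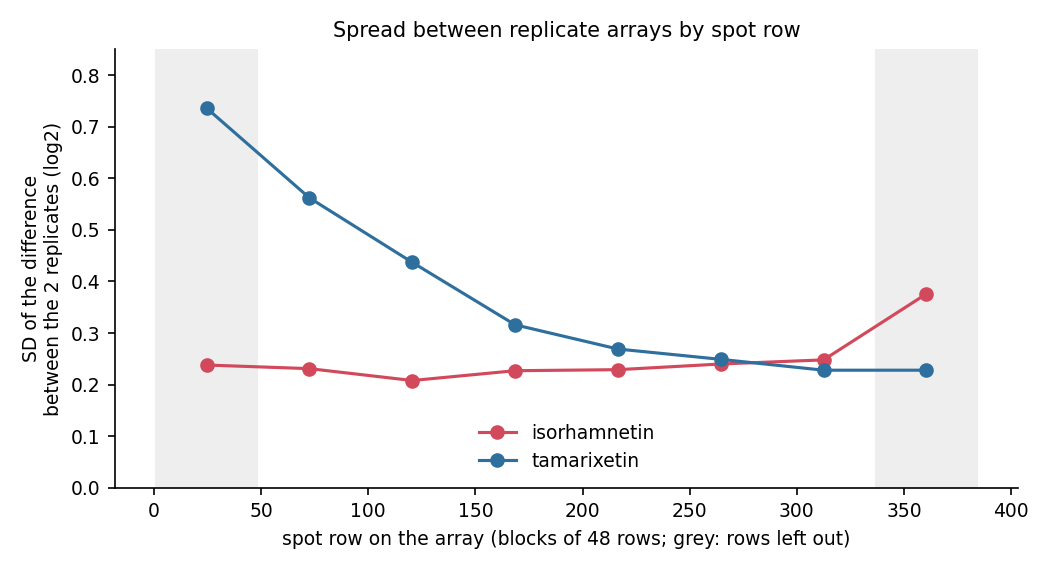
Standard deviation of the difference between the 2 replicate arrays (log2 signal, y axis) in blocks of 48 spot rows (x axis), for isorhamnetin and tamarixetin, with the rows left out shaded grey. The tamarixetin value falls from 0.736 in the first block to 0.228 in the last, while the isorhamnetin value is between 0.208 and 0.248 in all blocks but the last, where it is 0.376.

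Cells exposed to electrophiles and oxidants answer through NRF2, a transcription factor that the adaptor KEAP1 otherwise delivers to the proteasome. When KEAP1 is modified, NRF2 binds antioxidant response elements with small MAF partners and raises genes for glutathione synthesis, haem breakdown, quinone reduction and NADPH supply. In macrophages it is also known to restrain inflammatory gene expression. Type I interferon signalling, by contrast, keeps a set of antiviral genes at a tonic level in macrophage lines through IRF9 and STAT factors. Flavonols taken up by cells can be exported by ABC transporters and changed by methyl, sulfate and glucuronide transfer.

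Isorhamnetin and tamarixetin, compared as 1 pair at the same dose and time, differed at 100 of 17190 genes, which is 0.582% of those tested (limma, all 8 arrays, Benjamini-Hochberg adjusted p under 0.05). The larger group, 88 genes, was higher with isorhamnetin (0.512% of genes tested), and 12 were lower (0.0698%). The background filter kept 1022 genes through the isorhamnetin arrays only and 3 through the tamarixetin arrays only. Of the 88, 27 were above background on no tamarixetin array. With probes above background on all 4 flavonol arrays, 110 genes were called higher and 18 lower. With no filter on probes the split turned, to 692 higher and 11188 lower. Among called genes with a symbol that were above background on all 4 flavonol arrays, those of the NRF2 response led: Slc7a11, Gclm and Hmox1 were between 2.48-fold and 3.23-fold higher with isorhamnetin. Among called genes above background on all 4 flavonol arrays, 9 differed by 2-fold or more, all higher with isorhamnetin. Levels are given as log2 signal after subtraction of each array's 75th percentile, and differences between groups are on the log2 scale.

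The number of calls depended on the arrays in the fit. It was 12 without isorhamnetin replicate 1 and 0 without isorhamnetin replicate 2, where 1846 genes had an unadjusted p under 0.05 against 2284 with all arrays. It was 116 without tamarixetin replicate 1 (61 higher and 55 lower) and 119 without replicate 2 (68 higher and 51 lower), against 12 lower with all arrays. It was 21 without either control array and 12 without either Torin1 array. With all spot rows it was 178, of which 126 were higher and 52 lower. With only the 4 flavonol arrays in the limma fit it was 1, Treml4. In that fit the adjusted p was 0.143 for both Slc7a11 and Gclm and 0.21 for Hmox1. Each fit without an array has fewer residual degrees of freedom than the 4 of the full fit. With 2 arrays against 2, an exact permutation test of a single gene cannot give a two-sided p below 0.333.

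**Figure D2:**
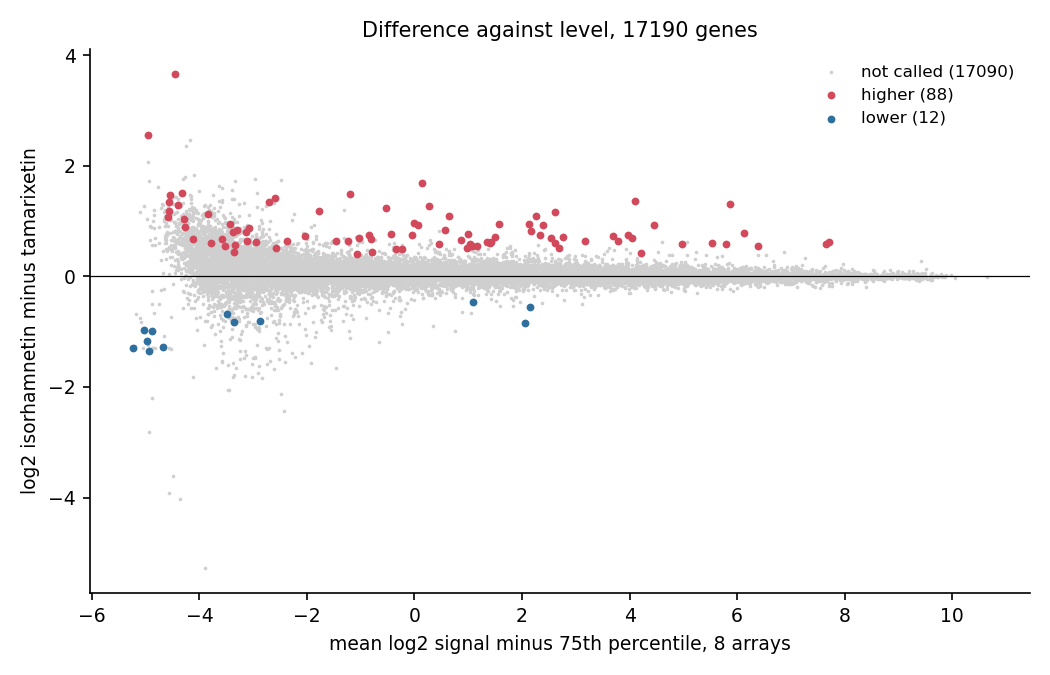
Difference between the flavonols (log2 isorhamnetin minus tamarixetin, y axis) against the mean level over 8 arrays (log2 signal minus 75th percentile, x axis), with 1 point per gene for 17190 genes. The 88 genes called higher (red) run through the whole range of levels, while those called lower (blue) are mostly faint.

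Among called genes above background on all 4 flavonol arrays, the largest difference belonged to the glutathione branch of the NRF2 response. Slc7a11, the cystine importer that supplies cysteine for glutathione, stood at 1.38 and 1.34 on the isorhamnetin arrays, at -0.33 on both tamarixetin arrays and at -0.29 and -0.20 on the control arrays. The isorhamnetin arrays were far above the other 4, and tamarixetin lay just under control. The difference between the flavonols was 1.69 (95% interval 1.55 to 1.83), or 3.23-fold, with an adjusted p of 0.00273. A further probe for the same gene gave 1.99.

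Gclm encodes the modifier subunit of glutamate-cysteine ligase, the enzyme of the first step of glutathione synthesis. Its levels were 5.29 and 5.32 under isorhamnetin, 3.94 and 3.95 under tamarixetin, and 3.92 and 3.86 in control. The difference was 1.37 (1.23 to 1.5), or 2.58-fold, with an adjusted p of 0.0041. Tamarixetin and control were within 0.05 of each other at this gene, with a 95% interval for tamarixetin minus control of -0.09 to 0.19.

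The catalytic subunit Gclc rose by less, with levels of 3.24 and 3.32 under isorhamnetin and 2.59 and 2.53 under tamarixetin, a difference of 0.72 (0.57 to 0.87, adjusted p = 0.0175). Gsr, the reductase that regenerates glutathione, was 5.58 and 5.55 with isorhamnetin and 5.0 and 4.94 with tamarixetin, a difference of 0.59 (0.45 to 0.73, adjusted p = 0.0236). These 4 were the only members called among the 16 measured of 18 on a list of glutathione use and synthesis. All were higher with isorhamnetin (0.512% of all genes were called higher), and all 4 are also on the NRF2 list. The glutathione list's median difference was 0.27 against 0.05 over all genes. Its median against control was 0.04 with isorhamnetin and -0.05 with tamarixetin. Slc3a2, the partner chain of Slc7a11, had a difference of 0.39 (adjusted p = 0.051), and the transferase Mgst2 one of 0.43 (adjusted p = 0.0658), neither past the threshold. Of the 4 called, Slc7a11 and Gclm were also called without isorhamnetin replicate 1, without any 1 control array and without any 1 Torin1 array, Gclc was called besides without either tamarixetin array, and none was called without isorhamnetin replicate 2 (adjusted p from 0.0584 to 0.123).

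The start regions of the NRF2-list genes were searched for the core of the antioxidant response element, TGACNNNGC on either strand, in 250 bases before to 50 after each gene's start (RefSeq, GRCm38.p6). The Gclm and Txnrd1 regions are shown because, of the list's called genes that hold the letters, these had the largest differences. Gclm lies at chr3:122245307-122245556 and Txnrd1 at chr10:82858956-82859205, both on the plus strand, and the 250 bases upstream of each start are printed with the matching letters in capitals.
Gclm: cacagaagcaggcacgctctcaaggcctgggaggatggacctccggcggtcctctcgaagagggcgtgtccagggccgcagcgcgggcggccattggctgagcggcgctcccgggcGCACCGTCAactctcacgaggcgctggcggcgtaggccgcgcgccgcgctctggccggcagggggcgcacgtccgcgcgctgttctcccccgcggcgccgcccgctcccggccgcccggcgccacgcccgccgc
Txnrd1: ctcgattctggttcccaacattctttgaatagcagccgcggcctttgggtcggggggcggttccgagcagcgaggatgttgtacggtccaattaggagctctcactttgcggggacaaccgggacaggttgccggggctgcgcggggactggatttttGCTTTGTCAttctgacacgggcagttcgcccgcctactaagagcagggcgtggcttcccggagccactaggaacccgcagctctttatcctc
In both, the match runs on the opposite strand, starting 134 bases before the Gclm start and 92 bases before the Txnrd1 start. The core was present in 3 of 9 called genes of the list that have an entry, in 12 of 55 called higher (21.8%), in 1407 of 8525 tested genes (16.5%) and in 12.4% of all 32851 regions in the table. A gene counts if any of its listed starts matches, so genes with several starts have more chances than a single region; Txnrd1 has 3 listed starts, of which 1 matches and is shown. The 2 genes of largest difference with an entry, Nqo1 and Slc7a11, hold no match in this window, which says only that these letters are not there. For the core of the interferon-stimulated response element, on either strand, 2 of 55 genes called higher matched (3.64%), 0 of 6 called lower and 316 of 8525 tested genes (3.71%). A match is a description of letters and not evidence of a bound site.

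Outside glutathione synthesis, genes for haem breakdown, quinone and carbonyl reduction and NADPH supply were also higher with isorhamnetin. Hmox1, which encodes the enzyme that cleaves haem, stood at 6.70 and 6.72 on the isorhamnetin arrays, 5.54 and 5.25 on the tamarixetin arrays and 5.54 and 5.40 on the control arrays. The isorhamnetin arrays lay above all others, and tamarixetin overlapped control. The difference was 1.31 (1.05 to 1.58), or 2.48-fold, with an adjusted p of 0.0166. Blvrb, which reduces the biliverdin that haem breakdown leaves, had a difference of 0.69 (0.54 to 0.83, adjusted p = 0.0176).

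Nqo1, a quinone reductase and a standard readout of NRF2, was measured only with isorhamnetin. It stood at -2.95 and -2.61 on the isorhamnetin arrays and was not well above background on any tamarixetin or control array, where the readings were -5.34 and -5.32 and -5.87 and -6.10. Set against the lowest signal that counts as above background on the tamarixetin arrays, isorhamnetin was at least 1.23-fold higher (adjusted p of the fit 0.00974). A bound like this compares the isorhamnetin mean with, on each dim array, the higher of that floor and the probe's own reading. With 1 signal floor for all arrays, an alternative chosen after seeing the data, the fitted difference fell from 2.55 to 0.30 and was not called (adjusted p = 0.369).

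Cbr3, a carbonyl reductase, was 3.36 and 3.34 under isorhamnetin, 2.28 and 2.08 under tamarixetin and 2.16 and 2.24 in control, a difference of 1.17 (0.98 to 1.36, adjusted p = 0.00982). Txnrd1, thioredoxin reductase, was 6.09 and 6.07 against 5.5 and 5.43, a difference of 0.61 (0.47 to 0.75, adjusted p = 0.0194). At both genes the tamarixetin arrays lay beside control and clear of the isorhamnetin arrays. Pgd, an NADPH-producing enzyme of the pentose phosphate pathway, had a difference of 0.58 (adjusted p = 0.0194), the aldo-keto reductase Akr1b8 0.59 (adjusted p = 0.031) and the esterase Esd 0.62 (adjusted p = 0.0434). Abcc1, a transporter that exports glutathione conjugates, stood at 2.77 and 2.81 under isorhamnetin, 2.05 and 2.02 under tamarixetin and 2.34 and 2.33 in control, so that here the flavonols lay on opposite sides of control (difference 0.75, 0.63 to 0.87, adjusted p = 0.00982).

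Of 31 genes on the NRF2 list 26 were measured, and 13 of them were called, all higher with isorhamnetin, against 0.512% of all genes. This list, like the others, was written with earlier results of these data known. The median difference over the 26 was 0.58, with a range of 0.03 to 2.55. In 23 the isorhamnetin arrays did not overlap the tamarixetin arrays and were higher (30.3% of all genes). All 26 passed the filter through both flavonols except Nqo1, which passed through isorhamnetin alone, the group where it was high. Of all 2527 genes above background on both isorhamnetin arrays and on no tamarixetin array, 27 were called higher and 1 lower. The 13 not called include Osgin1 at 0.67 (adjusted p = 0.0926), the glutathione transferase Gstm1 at 0.46 (0.0955) and G6pdx, the first enzyme of the pentose phosphate pathway, at 0.39 (0.0799). Of the 5 not measured, 3 had probes only in the rows left out and 2 were not above background in any group.

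Set against control, the list's median was 0.47 with isorhamnetin and -0.05 with tamarixetin. In the same fit (limma) 12 of the 26 were called higher than control with isorhamnetin (0.407% of all genes were) and none with tamarixetin. For tamarixetin minus control no gene of 17190 was called, and 2471 had an unadjusted p under 0.05 (14.4%). For isorhamnetin minus control 87 genes were called, and a similar number, 2625, had an unadjusted p under 0.05 (15.3%). Both contrasts use the same 2 control arrays. A missed threshold does not show that tamarixetin left these genes at the control level. The 95% intervals for tamarixetin minus control were -0.23 to 0.06 for Slc7a11, -0.34 to 0.19 for Hmox1, -0.22 to 0.17 for Cbr3, -0.15 to 0.15 for Gclc and -0.16 to 0.12 for Txnrd1. These intervals are not adjusted for the choice of genes on the same tamarixetin arrays, and tamarixetin and control lay in different rows of the slide. Of the 13 called members, 11 had an interval that includes 0, while that of Abcc1 was -0.42 to -0.18 and that of Nqo1, not above background in either group, was 0.26 to 1.06. Of the 13 called between the flavonols, 3 were called without isorhamnetin replicate 1 (Slc7a11, Gclm and Nqo1), none without isorhamnetin replicate 2, 9 and 8 without tamarixetin replicate 1 or 2, 5 without either control array and 3 without either Torin1 array.

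**Figure D3:**
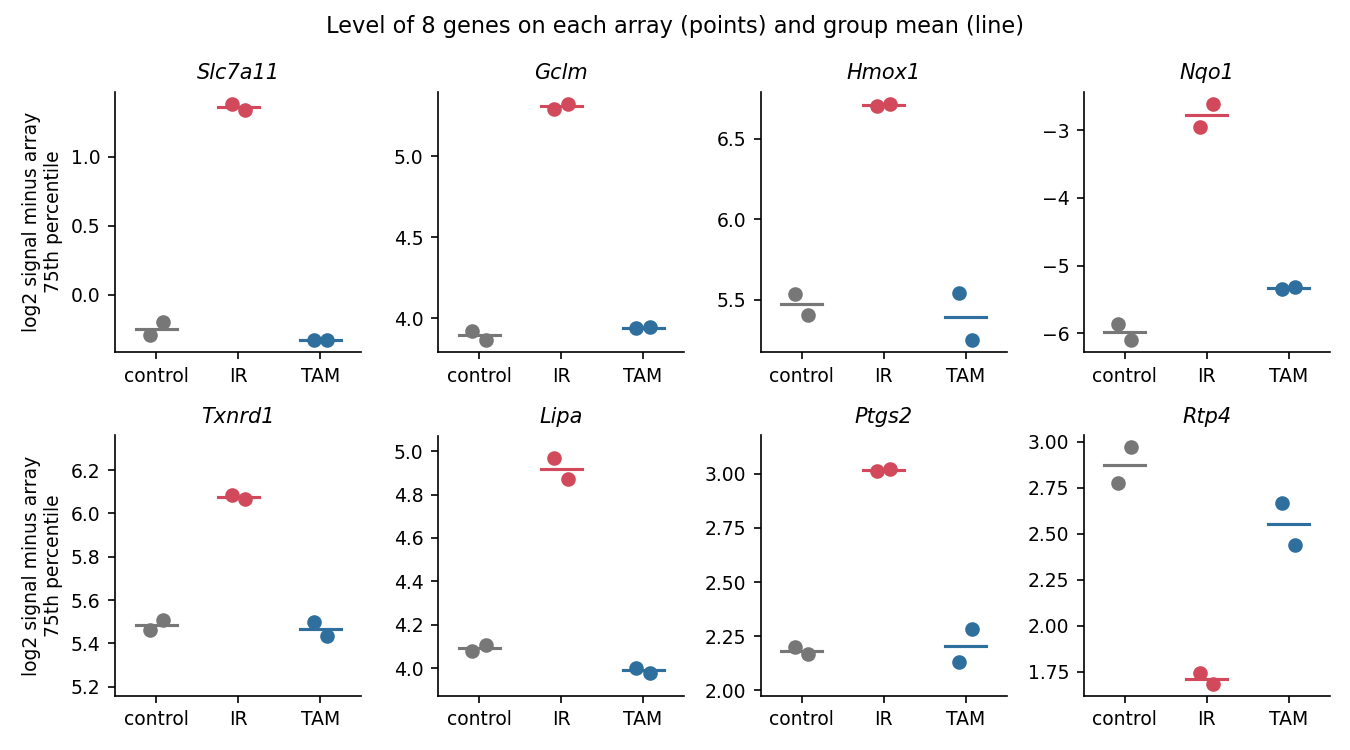
Level of 8 genes (log2 signal minus the array's 75th percentile, y axes of differing range) on each control, isorhamnetin (IR) and tamarixetin (TAM) array as points, with the mean of each pair as a line. Slc7a11, Gclm, Hmox1, Txnrd1, Lipa and Ptgs2 are high on the isorhamnetin arrays alone, Rtp4 is low there, and Nqo1 was not well above background in control or tamarixetin.

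The regulators of NRF2 were a separate list. Nfe2l2, which encodes NRF2 and like Mafg was named after its values were seen, was 3.89 on both isorhamnetin arrays and 4.09 and 3.93 with tamarixetin, a difference of -0.12 (-0.28 to 0.04, adjusted p = 0.505). Among 8 regulators measured of 11, the only call (0.512% of all genes were called higher) was Sqstm1, an autophagy receptor that binds KEAP1 and is itself an NRF2 target. It stood at 6.17 and 6.28 under isorhamnetin, 5.48 and 5.41 under tamarixetin and 5.44 and 5.49 in control (difference 0.78, 0.61 to 0.94, adjusted p = 0.0176). The small MAF gene Mafg had a difference of 0.37 (adjusted p = 0.105), and the list's median was 0.02. Sqstm1 was called without tamarixetin replicate 1 (adjusted p = 0.0435) but not without any other single array (0.051 to 0.11), nor on the mean of its probes (0.0692).

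Slc7a11 also responds to ATF4, the transcription factor of the amino-acid and stress response, so that list was set beside the NRF2 list. Slc7a11 was the only one of 26 measured ATF4 genes to be called (0.512% of all genes were called higher). The median difference was 0.22, and 24 of 26 differences were above 0. An unadjusted p under 0.05 was reached by 14 of the 26, all higher with isorhamnetin (1832 of all 17190 genes were), and in 20 the flavonols did not overlap and isorhamnetin was higher (30.3% of all genes). Trib3, a pseudokinase induced by ATF4, was 3.99 and 3.92 with isorhamnetin and 3.39 and 3.06 with tamarixetin, a difference of 0.74 (0.46 to 1.01, adjusted p = 0.0731), and Cth, which makes cysteine from cystathionine, had one of 0.52 (adjusted p = 0.0674). Asns, asparagine synthetase and a standard ATF4 target, had a difference of 0.16 (-0.02 to 0.34, adjusted p = 0.433).

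**Figure D4:**
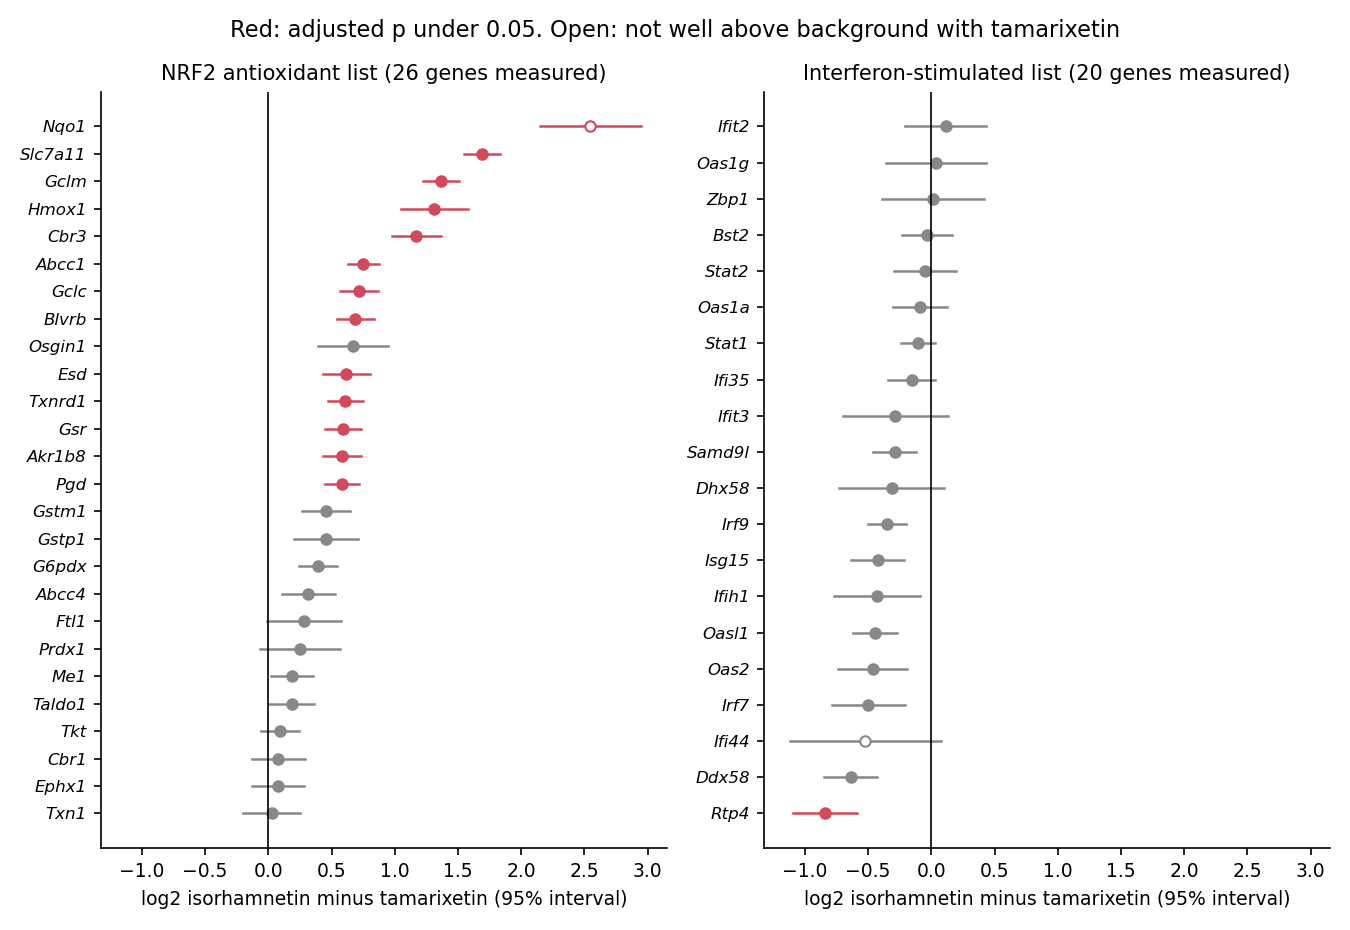
Difference between the flavonols (log2 isorhamnetin minus tamarixetin, x axes) with its 95% interval for the 26 measured genes of the NRF2 list (left) and the 20 of the interferon-stimulated list (right), in red where the adjusted p was under 0.05 and open where the gene was not well above background with tamarixetin. All 26 on the left lie above 0 and 13 are red, while 17 of 20 on the right lie below 0 and only Rtp4 is red.

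Interferon-stimulated genes leaned the other way. Rtp4, an interferon-induced chaperone of membrane receptors, was the only one called of 20 measured genes out of 36 (0.0698% of all genes were called lower). It stood at 1.74 and 1.69 under isorhamnetin, 2.67 and 2.44 under tamarixetin, and 2.77 and 2.97 in control. Isorhamnetin was lowest, tamarixetin lay between and just under control, and the flavonols did not overlap. The difference fell by 0.84 on the log2 scale (-1.09 to -0.59, adjusted p = 0.0433), but it was not called without tamarixetin replicate 1 (adjusted p = 0.0799) or without either isorhamnetin, control or Torin1 array (0.0915 to 0.205).

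Ddx58, the cytosolic RNA sensor RIG-I, was 0.57 and 0.51 under isorhamnetin, 1.27 and 1.09 under tamarixetin and 1.47 and 1.6 in control. The order was the same as for Rtp4, and the difference of -0.64 (-0.85 to -0.43) just missed the threshold (adjusted p = 0.0521). Isg15, a ubiquitin-like protein, had a difference of -0.43 (adjusted p = 0.133), Oasl1 -0.45 (0.0799), Irf7, the factor that amplifies interferon production, -0.50 (0.172), and Irf9 -0.35 (0.0959). The list's median was -0.30 against 0.05 over all genes, with 17 of 20 differences below 0. An unadjusted p under 0.05 was reached by 9 of the 20, all lower (2.63% of all genes were). In 13 the flavonols did not overlap and isorhamnetin was lower (11.7% of all genes). Against control its median was -0.44 with isorhamnetin, with 3 genes called lower (0.0989% of all genes), and -0.13 with tamarixetin, with none called.

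Genes outside the lists made up most of the calls. Among called genes with a protein-type symbol that were above background on all 4 flavonol arrays and did not overlap, the 12 largest differences were Slc7a11, Gclm, Hmox1 and Cbr3, given above, and 8 others, of which several encode membrane proteins. Layn, a membrane receptor that binds hyaluronan, was 1.07 and 0.93 under isorhamnetin, -0.23 and -0.30 under tamarixetin and -0.09 and -0.03 in control (difference 1.26, 1.07 to 1.46, adjusted p = 0.00974). Ppfibp2, a liprin scaffold protein, was 0.01 and -0.01 against -1.18 and -1.28, with control at -1.15 and -1.07 (difference 1.23, adjusted p = 0.00798). Dtx4, a ubiquitin ligase of the Deltex family, and Mfap3l each had a difference of 1.08 (adjusted p = 0.00974 and 0.0166).

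Cldn11, a tight-junction claudin, was 0.35 and 0.18 under isorhamnetin, -0.58 and -0.82 under tamarixetin and -0.11 and -0.04 in control. Tamarixetin read below control by more than isorhamnetin read above it. The difference between the flavonols was 0.97 (0.72 to 1.21, adjusted p = 0.0285). Clec4b1, a C-type lectin, was 2.00 and 1.95 against 1.04 and 1.03, with control between at 1.38 and 1.28 (difference 0.94, adjusted p = 0.00974). Olr1, a scavenger receptor for oxidised lipoprotein, had a difference of 0.93 (adjusted p = 0.0182) and Glipr1 one of 0.94 (adjusted p = 0.00982). All 12 were called without either tamarixetin array, 9 without either control array, 5 without either Torin1 array, 3 without isorhamnetin replicate 1 and none without isorhamnetin replicate 2.

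Called genes above background on both isorhamnetin arrays and on no tamarixetin array are given as bounds. Treml4, a receptor of the TREM family, had the widest gap: -1.61 and -1.52 with isorhamnetin, and not well above background on any tamarixetin or control array. The bound was at least 2.85-fold higher (adjusted p of the fit 0.00982), and the call was lost without either isorhamnetin array (adjusted p = 0.0832 and 0.103). The bound for Sparcl1 was at least 1.32-fold, and for a transcript known only by its position at least 1.41-fold (adjusted p = 0.0474 and 0.0433). Atp6v0d2, a proton pump subunit, had a bound of at least 1.70-fold on its brightest probe (adjusted p = 0.0378), but its other probe gave a difference of -0.47, and the mean of both, 0.35, was not called (adjusted p = 0.514). Of the 88 genes called higher, 61 were above background on all 4 flavonol arrays and 27 were so on both isorhamnetin arrays but not on both tamarixetin arrays, and 16 of those 27 give no fold.

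Only 4 of the 12 genes called lower were above background on all 4 flavonol arrays. Besides Rtp4 these were Eps8, an actin-capping and signalling adaptor, at 0.36 and 0.44 with isorhamnetin and 0.88 and 0.85 with tamarixetin (difference -0.46, -0.60 to -0.33, adjusted p = 0.0433), and 2 transcripts without a named protein, Gm5547 (-0.81, adjusted p = 0.0412) and AK155341 (-0.55, adjusted p = 0.0188), which were named after their values were seen. Another 6 were above background with neither flavonol and entered the test only through Torin1, so they carry no fold. The last 2, AK199258 and Gpat3, were above background with isorhamnetin on both arrays but not on both tamarixetin arrays, although their fitted differences were -0.68 and -0.83 (adjusted p = 0.0433 and 0.0353). The lowest signals differed by array: the faintest signal counted as above background was 15.7 to 19.0 units on the isorhamnetin arrays and 43.1 to 47.7 on the tamarixetin arrays, and their part in these calls was not tested. Of the 4, Rtp4 and Gm5547 were called without tamarixetin replicate 2, and none was called when any other array was left out.

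Of 29 measured inflammatory mediators out of 38, 2 were called, both higher with isorhamnetin, against 0.512% of all genes called higher. Ptgs2, the inducible cyclooxygenase, was 3.01 and 3.02 under isorhamnetin, 2.13 and 2.28 under tamarixetin and 2.20 and 2.17 in control (difference 0.81, 0.65 to 0.97, adjusted p = 0.0166). Tnfaip2, a TNF-induced protein, was 1.59 and 1.58 against 0.95 and 0.79, with control between at 1.14 and 1.1 (difference 0.71, adjusted p = 0.0361).

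None of the 4 cytokine-family genes described here was called. Il1b, which encodes interleukin-1 beta, was -0.88 and -0.61 under isorhamnetin, -0.02 and -0.26 under tamarixetin and 0.38 and 0.17 in control. The flavonols did not overlap, and both were below control, but the difference of -0.61 (-1.0 to -0.22) had an adjusted p of 0.204. Tnf had a difference of -0.18 (-0.40 to 0.04, adjusted p = 0.454), the anti-inflammatory cytokine Il10 one of 0.64 (adjusted p = 0.124) and the receptor antagonist Il1rn one of 0.42 (adjusted p = 0.0531). The list's median was -0.04.

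Lipa, the acid lipase that frees cholesterol and fatty acids in lysosomes, was the only call among 35 measured lysosomal genes of 43 (0.512% of all genes were called higher). It stood at 4.97 and 4.87 under isorhamnetin, 4.0 and 3.98 under tamarixetin and 4.08 and 4.11 in control (difference 0.93, 0.79 to 1.07, adjusted p = 0.00974), while the list's median was 0.04. On a list of osteoclast-type genes 2 of 11 measured were called higher, against 0.512% of all genes, with a list median of 0.21: Atp6v0d2, described above, and Ctsk, a collagen-cutting protease, at -0.93 and -0.99 against -1.46 and -1.47 (difference 0.50, adjusted p = 0.0361). Flcn, a regulator of lysosomal signalling to mTOR, had a difference of -0.07 (-0.26 to 0.11, adjusted p = 0.744). Without either isorhamnetin array none of these calls held (Ptgs2, Tnfaip2, Lipa, Ctsk, Atp6v0d2), and without any 1 control or Torin1 array Lipa alone did. Ctsk was not called without either tamarixetin array, and Tnfaip2 only without replicate 1 of that pair.

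Of genes that handle flavonols, 8 of 18 were measured and only Abcc1 was called, with a list median of 0.19. Over all 37 lists, 614 of 787 genes were measured, 19 were called higher with isorhamnetin and 1 lower. Of all genes tested, 0.512% were called higher and 0.0698% lower. No gene was called on 24 lists, whose medians lay between -0.05 and 0.22, among them ribosomal proteins (54 measured, median -0.01), oxidative phosphorylation (25, -0.03), proteasome (22, 0.01), heat shock (12, -0.01), mitosis (18, 0.02) and cholesterol synthesis (21, 0.03). Of 9 macrophage markers 8 were measured, 7 of them above background on all 4 flavonol arrays, and none was called. Of 32 markers of other cell types 6 were measured, 3 of them above background on all 4 flavonol arrays, and none was called.

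Further called genes were chosen after their values were seen. Cat, catalase, which breaks down hydrogen peroxide, was 3.17 and 3.10 under isorhamnetin, 2.31 and 2.10 under tamarixetin and 2.16 and 2.12 in control (difference 0.93, adjusted p = 0.0182). Gstp2, a glutathione transferase closely related to Gstp1, had a difference of 0.64 (adjusted p = 0.0331), and signal from the near-identical copy could be shared. Ptgr1, which inactivates prostaglandins and reduces alkenals, had one of 0.62 (adjusted p = 0.0431). Among transporters, Slc6a9, a glycine importer, had a difference of 0.69 (adjusted p = 0.0182) and the creatine transporter Slc6a8 one of 0.52 (adjusted p = 0.0336), with tamarixetin also above control at Slc6a8 by 0.27.

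Surface and immune genes among the calls included Ptgir, the prostacyclin receptor, at 0.87 and 0.85 under isorhamnetin, 0.06 and -0.02 under tamarixetin and 0.01 and 0.11 in control (difference 0.84, adjusted p = 0.0166). Cd274, the checkpoint ligand PD-L1, was 1.06 and 1.11 against 0.39 and 0.25, with control at 0.26 and 0.30 (difference 0.76, adjusted p = 0.0176). Tamarixetin lay beside control at both genes. The fractalkine receptor Cx3cr1 had a difference of 0.55 (adjusted p = 0.0341), the Notch ligand Jag1 0.74 (0.0433), the protease inhibitor Serpinb9 0.75 (0.0142), the scavenger receptor Stab1 0.65 (0.0188) and the ubiquitin ligase Rnf128 0.76 (0.0298). With Nrp1, Smpdl3a and Mpeg1, 15 called genes were chosen in this way. None of them was called when either isorhamnetin, control or Torin1 array was left out (adjusted p from 0.0572 to 0.201), while 7 were without tamarixetin replicate 1 and 6 without replicate 2.

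The place of each flavonol against the control arrays is given as a description, since the genes were picked for a gap between the flavonols. Among the 61 genes called higher that were above background on all 4 flavonol arrays, isorhamnetin was above both control arrays in 61 (24.9% of all 13794 genes this bright were). Tamarixetin was below both control arrays in 33 (54.1%, against 32.8% of all), among them in 24 and above both in 4. The median was 0.59 for isorhamnetin minus control and -0.07 for tamarixetin minus control, against -0.01 and -0.04 over all genes this bright. On the slide, 1 row of arrays held control and isorhamnetin and the other held tamarixetin and Torin1. Position and group therefore cannot be told apart between the flavonols or between tamarixetin and control. For that reason the control arrays cannot show on which side a difference arose.

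**Figure D5:**
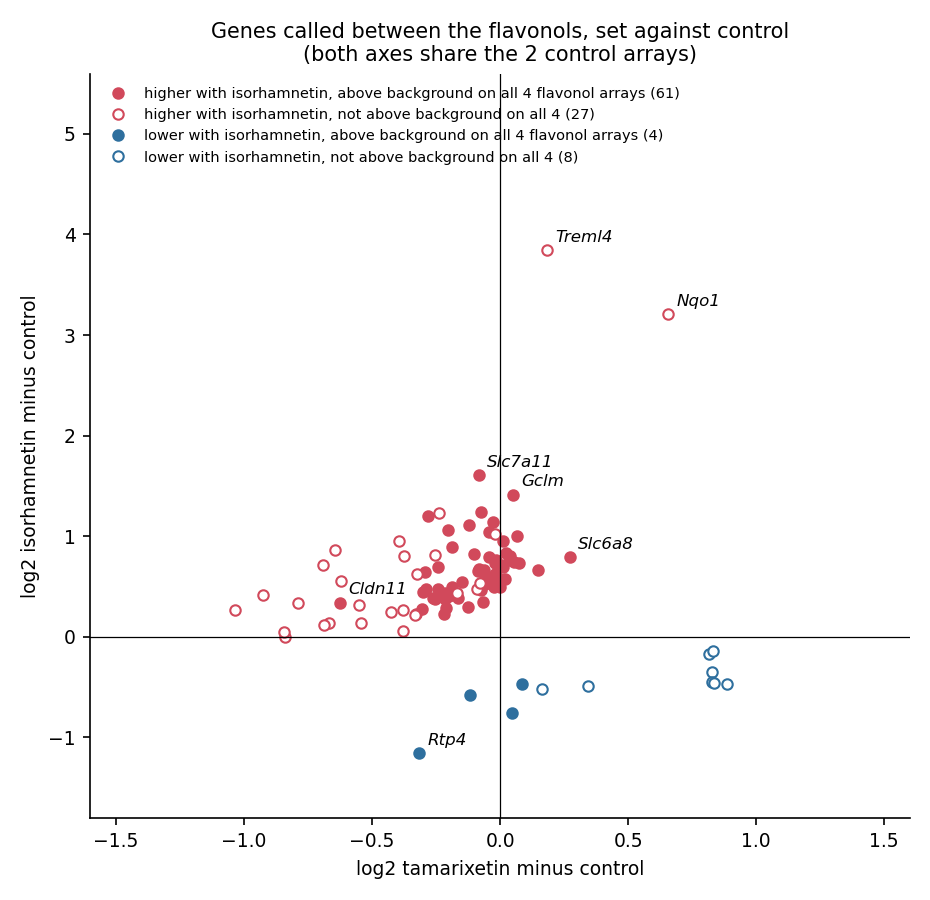
For the 100 genes called between the flavonols, log2 isorhamnetin minus control (y axis) against log2 tamarixetin minus control (x axis), red where higher and blue where lower with isorhamnetin, open where not above background on all 4 flavonol arrays. The 61 filled red points spread upward around an x value of -0.07, their median, and both axes share the 2 control arrays.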

How the data were processed

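RNA from J774.1 cells was hybridised to 8 Agilent 1-colour arrays on 1 slide, 2 per group. Per the file headers and the submitters' processing notes, Agilent Feature Extraction 10.7.1.1 gave a background-subtracted, spatially detrended signal, deposited as an intensity per spot. The authors' deposited log2 values were compared with log2 signal minus each array's 75th percentile and each probe's median over arrays. Of all array values of the 56605 probes, 99.9% matched within 0.01, so the scale, centring and direction of the deposited values are known. Their column medians were -0.11 and -0.0804 (control), -0.0451 and -0.0917 (isorhamnetin), 0.0963 and 0.103 (tamarixetin) and 0.173 and 0.0815 (Torin1).

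Here log2 signal minus the array's 75th percentile was used. Spots of a probe were averaged, 90 probes with outlier flags were left out, probes well above background on both arrays of any group were kept (20727), and each gene took its brightest probe (3005 genes had several). Of the probes, 32994 were named by RefSeq accession (GRCm38.p6, names only). Contrasts were fitted with limma 3.58.1 (R 4.3.3, package data.table, version 1.17.8) on 4 group means, 4 residual degrees of freedom, called at an adjusted p under 0.05 over 17190 genes. The design text calls the replicates biological. The fit was tested on simulated data.

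The members and gene lists were chosen with earlier results of these data known. Named genes were the 12 largest called differences per direction above background on all 4 flavonol arrays without overlap, no more than 4 bounds each way, at most 5 called members per list, any member of certain lists, and a panel of 20 genes. The labels tie the replicate numbers to nothing shared, so the arrays were treated as unpaired. Deviations of same-numbered arrays correlated at -0.166 between the flavonols, and from -0.151 (control and isorhamnetin) to 0.126 (control and tamarixetin) for other pairs of groups. These values cannot exclude a pairing, since crossed numbers would turn the sign. Signal limits, not read depth, set the precision, and 2 arrays per group limit it.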

Additional observations from a re-analysis of the deposited data

Results flagged for a closer look

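The spot rows left out of the comparison hold signal of their own. Of 6575 genes with a kept probe in those rows, 69 were called between the flavonols (limma, adjusted p under 0.05), which is 1.05%, with 31 higher and 38 lower with isorhamnetin. The standard deviation of differences there was 0.543, against 0.276 inside, and the part that the wider tamarixetin spread plays in these calls was not tested. Of the 69, 61 fell on genes with no measurement inside.

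Some members of the same lists were measured only in these rows. Srxn1, sulfiredoxin, read 5.58 and 5.47 under isorhamnetin, 4.54 and 4.49 under tamarixetin and 4.28 and 4.55 on the control arrays, a difference of 1.01 (adjusted p = 0.0229). The haem transporter gene Slc48a1 had a difference of 0.878 (adjusted p = 0.00512), while Fth1, ferritin heavy chain, had one of 0.091 (adjusted p = 0.84). Of 9 interferon-stimulated genes measured only there, Usp18 (-0.91, adjusted p = 0.0351) and Ifi204 (-0.558, adjusted p = 0.0279) were called. Among all 6575 genes with a kept probe in these rows, 38 were called lower. The median of the 9 was -0.41, against 0.05 over all genes there. The immediate early gene Egr1 had a difference of -0.829 (adjusted p = 0.0351). Gpnmb, a lysosomal glycoprotein, had a fitted difference of 1.2 (adjusted p = 0.00405) but was not above background with tamarixetin. Cyp1b1 had probes inside the rows but was not above background in any group.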

How the results depend on the processing

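The count of 100 calls became 36 with median scaling, 53 with a variance weight per group, 12 without the Torin1 group, 1 with only the 4 flavonol arrays and 26 when a fitted 2-fold difference was also required, 9 of them above background on all 4 flavonol arrays. It became 178 with all spot rows, 189 with a trended and robust prior, and 11880 with no filter on probes, where 5.82% of calls were higher and the median of all genes moved by -0.148. Leaving out single arrays gave 0 to 119. Alternatives chosen after seeing the data gave 162 with 1 signal floor for all arrays and 101 with the percentile over spots. A replicate block of crossed tamarixetin numbers, also chosen after seeing the data, gave 15, and the planned replicate block gave 2. Both blocks are in the text only as counts, because the labels tie the replicate numbers to nothing shared. Other settings gave 67 to 150: 67 with normexp, 150 with quantile scaling, 99 with the percentile over probes above background on all 8 arrays, 130 and 128 with probes above background on all 8 or all 4 flavonol arrays, 80 with a wider edge, 100 with probe means and 101 with the authors' deposited values. Beyond fewer samples or genes in a fit, the cause was not tested.

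Of the named genes inside the kept rows, none changed the sign of its difference under these settings; those of the rows left out were not refitted. Of 37 list medians, 22 changed sign under some setting. The NRF2 list's median was 0.52 to 0.61 and the interferon list's -0.35 to -0.21 over all settings. Precision is limited at faint probes, where the tamarixetin arrays have the higher floor.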
